A study of Cavia porcellus with 72 samples.

Results

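Promoter windows were stretches of 100 bp whose annotation placed them at the start of a gene, in tables of hippocampal DNA methylation from F1, F2 and F3 female guinea pigs. They were chosen by that annotation alone, every row marked as promoter and transcription start site (TSS) being taken, which gave 6348 of the 142171 listed windows, or 4.47%. The tables of F1, F2 and F3 held 2440, 1941 and 1967 of them. Together they stood at 5601 distinct positions and were assigned to 3692 promoters.

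The animals were Dunkin-Hartley females euthanized on postnatal day 40. In the sGC groups the pregnant F0 females had received the synthetic glucocorticoid betamethasone, and in the control groups saline. F1 animals were exposed in utero, and F2 and F3 descended from them through males. The labels gave 6 control and 6 sGC bisulfite libraries in every generation, whereas the series' design text gave 7 control and 5 sGC animals in F3. DNA came from hippocampal tissue, so a difference in cell composition and a difference in methylation within cells cannot be told apart.

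Cytosines that precede a guanine (CpG) can carry a methyl group, which DNA methyltransferases copy onto the new strand when cells divide. Many promoters are rich in CpGs that stay unmethylated, and dense promoter methylation generally goes with low transcription. Glucocorticoids act through nuclear receptors that bind DNA, and hippocampal neurons carry these receptors.

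A window was listed only if the authors' sGC and control levels differed by at least 2 percentage points, and the listing was not limited to differences past a significance threshold. Listing is thus an outcome of the authors' comparison of the groups, and a window that is not listed may have differed by less or have been covered too little. No value per animal was used, so none of the counts that follow has a replicate error or a test. Windows are named by their position in cavPor3, 1-based, and promoters by the Ensembl gene identifiers of the tables where a name is needed.

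The tissue was checked in the 36 RNA libraries of the same study, which held between 13507449 and 19767033 counted reads. Of 8 markers of hippocampal and forebrain excitatory neurons, 7 were in the count tables, and their summed level lay between 8177 and 12029 CPM over all libraries. CAMK2A, a kinase of excitatory synapses, was the most abundant of them. The 6 astrocyte markers summed to between 6518 and 12153 CPM. Striatal markers summed to at most 136.7 CPM and thalamic markers to at most 181.8 CPM. Of the 6 choroid plexus markers, 1 was in the F1 and F3 tables and 3 in the F2 table, and their sum reached 685.2 CPM in an F2 library while the F2 median was 28.2 CPM.

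Promoter windows made up a similar part of each table. They were 4.54% of the F1 windows, 4.66% of the F2 windows and 4.20% of the F3 windows. The F2 table, however, listed windows on 87 scaffolds only, numbered up to 86, whereas the F1 and F3 tables listed windows on 910 and 970 scaffolds. Outside these 87 scaffolds lay 570 F1 promoter windows, which is 23.4% of that list, and 468 F3 promoter windows, which is 23.8%. On the 87 scaffolds that all tables share, F1 had 1870, F2 had 1941 and F3 had 1499 promoter windows. F1 therefore had the longest list over all scaffolds and F2 the longest over the shared ones, and F3 moved from above F2 to below it. The share of promoter windows on the shared scaffolds was 4.58% in F1, 4.66% in F2 and 4.32% in F3.

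**Figure D1:**
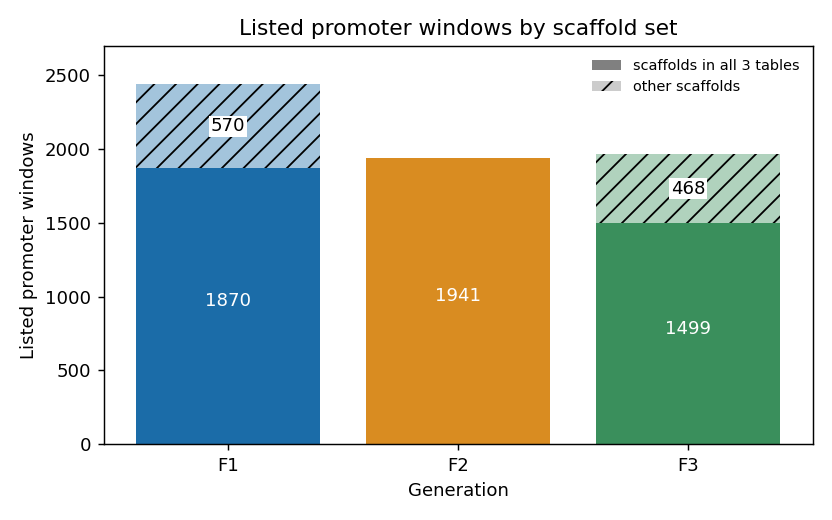
Number of listed promoter windows (y axis) in F1, F2 and F3 (x axis). Solid bars are windows on the scaffolds present in the tables of all 3 generations (1870, 1941 and 1499) and hatched bars are windows on other scaffolds (570 in F1, 468 in F3 and none in F2).

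The promoter windows of the 3 generations lay at similar distances from the start sites. The annotation that chose the windows places them near a start site, so this likeness is in part set by that choice. The median position of the window centre was -150 bp in F1, -150 bp in F2 and -141 bp in F3, where negative values are upstream of the start site. The quartiles ran from -354 to -21 bp in F1, from -340 to -20 bp in F2 and from -358 to -14 bp in F3. Upstream centres made up 78.8%, 78.5% and 77.6% of the windows. Within 300 bp of the start site on either side lay 1641 F1 windows (67.3%), 1344 F2 windows (69.2%) and 1314 F3 windows (66.8%).

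The first 100 bp downstream of the start site held the largest share of windows per 100 bp in each generation, with 19.02% in F1, 19.4% in F2 and 19.8% in F3. Shares fell away upstream, to between 6.08% and 7.47% from -500 to -400 bp and to between 2.16% and 2.80% from -600 to -500 bp. Promoter capture was designed over a short stretch around each start site, so these shares describe what was captured and listed and not where methylation differed most. The window centre lay between -1000 and 100 bp of the start site in 96.97% to 97.01% of the windows of each generation. That share follows from the promoter annotation by which the windows were chosen and is not a result about methylation. The remaining 74 F1, 58 F2 and 59 F3 windows lay farther off, as far as -116490 bp in F1, -394955 bp in F2 and -188696 bp in F3. In F1, F2 and F3, 62, 34 and 42 windows carried a different gene in the annotation than in the column of the nearest promoter. Distant windows stay in the counts by promoter below. The windows of ENSCPOG00000007360, listed in all 3 generations, stood at 9757 to 9857 bp.

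**Figure D2:**
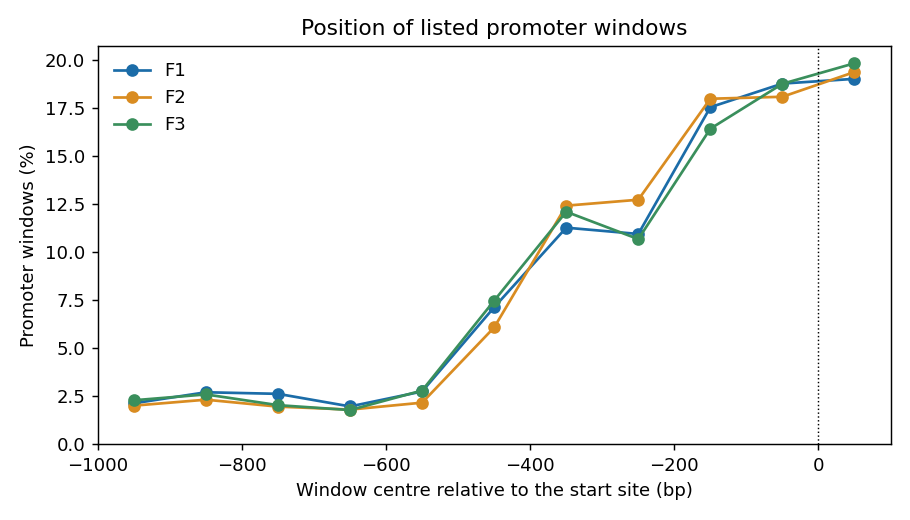
Share of the promoter windows of each generation (y axis, %) by position of the window centre relative to the start site, in bins of 100 bp (x axis, negative upstream). The lines of F1, F2 and F3 run close together, from about 2% per bin far upstream to 19.02%, 19.4% and 19.8% just downstream of the start site (dotted line).

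Most promoters were represented by a single window. In F1, 1425 of 1865 promoters (76.4%) had 1 window, 350 had 2 and 90 had 3 or more. In F2, 1082 of 1472 promoters (73.5%) had 1 window, 323 had 2 and 67 had 3 or more. In F3, 1156 of 1520 promoters (76.1%) had 1 window, 306 had 2 and 58 had 3 or more. Since windows started every 50 bp and neighbours share bases, the windows that overlapped or touched were also merged. The merged regions numbered 1963 in F1, 1551 in F2 and 1603 in F3, and between 78.0% and 80.0% of them consisted of 1 window. The longest covered 500 bp in F1, 350 bp in F2 and 300 bp in F3.

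The promoter with the most windows in any generation was that of ENSCPOG00000026345 on scaffold 68, with 11 windows in F1 between 8856251 and 8857000. They ran from -554 to 96 bp and formed 2 regions, the longer of 400 bp. The same promoter had 2 windows in F2 and none in F3. The longest unbroken region, 500 bp of scaffold 390 from 14301 to 14800, held 8 F1 windows at -386 to 14 bp and had 1 window in F3.

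In F3, a promoter on scaffold 1117 had 8 windows at -904 to -304 bp and another on scaffold 537 had 8 windows at -942 to -442 bp. F1 listed 2 windows for the former and 1 for the latter. Scaffolds 390, 537 and 1117 are not among those of the F2 table, so F2 could not contribute windows to these promoters. The F2 promoter with the most windows, 5, was that of ENSCPOG00000003615 on scaffold 15, which also had 2 windows in F1 and 3 in F3.

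A few stretches held windows of many promoters. When windows of any generation less than 20 kb apart were joined, 3477 neighbourhoods resulted, and 95.0% of them held 1 promoter. Of the rest, 5 held 4 or more. On scaffold 151, between 338401 and 383650, 11 promoters had 24 windows, with 8 of these promoters in F1 and 7 in F3. On scaffold 111, between 991701 and 1036100, 11 promoters had 21 windows, with 9 of these promoters in F1 and 5 in F3. Also on scaffold 111, between 1086401 and 1114400, 10 promoters had 15 windows, with 5 in F1 and 6 in F3. All 3 stretches lie on scaffolds missing from the F2 table. On the shared scaffolds the largest neighbourhood held 4 promoters, on scaffold 30 between 5467251 and 5504350, with 2 promoters in each generation.

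The design asks whether windows recur from generation to generation. Windows were matched by position alone, without the direction of the difference between sGC and control. A window listed in several generations may thus have differed in opposite directions. F1, F2 and F3 had their own control and sGC animals, so the lists share no sample. F2 and F3 descended from F1 through males, however, in separate control and sGC lines. Titles of some libraries carry the same animal number in different generations, so the lists may hold related animals. How many windows were compared in each generation is not known. The shares below therefore cannot be set against the share of all compared windows that was listed. The same promoter window was listed in F1 and F2 264 times, which is 10.8% of the F1 list and 13.6% of the F2 list. F1 and F3 shared 317 windows, which is 13.0% of the F1 and 16.1% of the F3 list. F2 and F3 shared 209 windows, which is 10.8% of the F2 and 10.6% of the F3 list. F1 and F3 thus shared the most windows by count.

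That order changed on the 87 shared scaffolds. There F1 and F2 shared 264 windows (14.1% of F1 and 13.6% of F2), F1 and F3 shared 228 (12.2% of F1 and 15.2% of F3), and F2 and F3 shared 209 (10.8% of F2 and 13.9% of F3). On the other scaffolds F1 and F3 shared 89 windows, or 15.6% of the 570 F1 and 19.02% of the 468 F3 windows there. Of the 4652 distinct promoter windows on the shared scaffolds, 4037 (86.8%) were listed in 1 generation, 572 (12.3%) in 2 and 43 (0.924%) in all 3.

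These shares were near those of windows elsewhere in genes and between them. On the shared scaffolds, 13.2% of distinct promoter windows were listed in at least 2 generations, beside 11.7% of exon windows, 14.1% of transcription end windows, 12.4% of intron windows and 12.5% of intergenic windows. The share listed in all 3 generations was 0.924% for promoter windows, 1.02% for exon, 1.38% for transcription end, 0.932% for intron and 0.954% for intergenic windows. For F1 windows listed again in F2, promoters stood at 14.1%, below transcription ends at 15.9% and above introns at 12.4%. For F1 windows listed again in F3, promoters stood at 12.19%, above the other 4 classes, of which intergenic windows came closest with 11.995%. For F2 windows listed again in F3, promoters stood at 10.8%, above exons at 10.01% and below the other classes, at 11.3% to 13.4%. The order depends on the list used as the base. As shares of the F3 list, promoters stood at 15.2% for F1 and F3, below exons at 15.4%. For F2 and F3 they stood at 13.94%, below transcription ends at 16.6% and above exons, introns and intergenic windows, at 13.46% to 13.90%. The differences between classes were not tested.

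**Figure D3:**
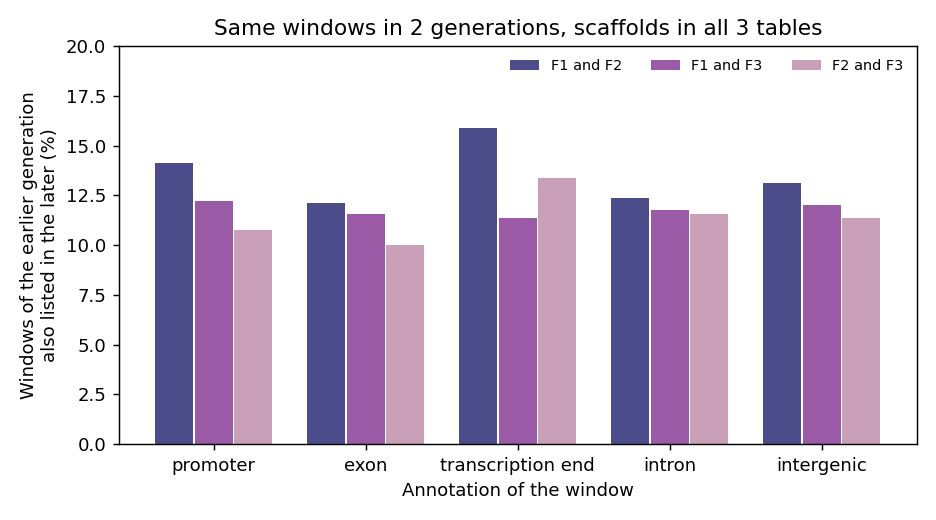
Share of the windows of the earlier generation that were also listed in the later one (y axis, %), by annotation of the window (x axis), on the scaffolds present in all 3 tables. Bars are the pairs F1 and F2, F1 and F3, and F2 and F3. The promoter bars stand at 14.1%, 12.2% and 10.8%. They lie among the other classes for F1 and F2 and for F2 and F3, and above them for F1 and F3, where intergenic windows follow with 11.995%. As shares of the later list, which are not drawn, exon windows stood above promoter windows for F1 and F3 (15.4% and 15.2%).

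Recurring windows lay at distances close to those of the other windows. The median distance from the start site was -143 bp for windows listed in 1 generation, -136 bp for those in 2 and -174 bp for those in 3, and the shares within 300 bp were 68.4%, 71.0% and 62.8%. By position, the share of distinct windows listed in at least 2 generations was 13.3% between -1000 and -600 bp, 12.3% between -600 and -300 bp, 14.1% from -300 bp to the start site and 12.1% in the 100 bp downstream.

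By promoter instead of window, recurrence was more frequent. This is a looser match, since a promoter counts as shared wherever its windows lie, so a higher share follows from the counting. The same count by gene was not made for exons, introns or transcription ends. On the shared scaffolds F1 and F2 had 455 promoters in common (31.1% of F1 and 30.9% of F2), F1 and F3 had 369 (25.2% of F1 and 31.4% of F3), and F2 and F3 had 359 (24.4% of F2 and 30.5% of F3). Promoters with more windows recurred more often. Of F1 promoters with 1 window, 42.9% also had a window in F2 or F3, compared with 51.1% of those with 2 windows and 80.4% of the 56 with 3 or more. In F2 these shares were 41.6%, 50.5% and 71.6%, and in F3 45.0%, 59.0% and 78.4%. A promoter with more windows also offers more positions to match, and the part of this in the shares was not tested.

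The 43 windows listed in all 3 generations belonged to 42 promoters on 30 scaffolds. Their centres ranged from -893 to 405 bp around a median of -174 bp, with 35 upstream and 8 downstream of the start site, and 27 lay within 300 bp of it. Those nearest a start site were scaffold_11:16062801-16062900 at 9 bp, scaffold_35:677201-677300 at -26 bp and scaffold_0:18764401-18764500 at -41 bp. A single promoter held 2 such windows, the overlapping scaffold_14:41741001-41741100 at -378 bp and scaffold_14:41741051-41741150 at -328 bp. The window farthest upstream was scaffold_20:33611651-33611750, and the farthest downstream, at 405 bp, was scaffold_70:7135951-7136050.

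A promoter was listed in all 3 generations in 153 cases, with 3 to 10 windows over the tables and a median of 4. In 42 of them the same window recurred in all 3 generations, and in 80 the windows of every pair of generations overlapped. In 28 of the 153 promoters no pair of generations listed a window at the same position, although some of these windows overlapped in part. For each promoter the least matched pair of generations was also taken, and the offset between its closest windows had a median of 50 bp and a maximum of 1550 bp.

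The 12 promoters of this kind with the most windows differed in how far the generations lined up. The windows assigned to ENSCPOG00000003615, scaffold_15:31343251-31343850, all had centres downstream of the start site from which distances were taken. Several lay beyond 100 bp, and whether their promoter annotation refers to another start site was not tested. The 2 F1 windows stood at 86 and 586 bp, the 5 F2 windows at 86, 336, 386, 436 and 486 bp, and the 3 F3 windows at 86, 136 and 586 bp. The window at 86 bp was thus in all 3 lists and that at 586 bp in F1 and F3, while the windows from 336 to 486 bp were listed in F2 alone.

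The promoter of ENSCPOG00000021373, scaffold_6:3016051-3016850, had 4 F1 windows at -301, -151, -101 and -51 bp. Its 2 F2 windows stood at -651 and -301 bp, and its 4 F3 windows at -301, -251, -1 and 49 bp. The window at -301 bp was common to all 3 generations, whereas the windows nearest the start site were listed in F1 and F3 at different positions.

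The promoter of ENSCPOG00000029484, scaffold_45:11584251-11584600, had its 10 windows within 350 bp. F1 windows stood at -183, -133 and -83 bp, F2 windows at -283, -233 and -133 bp, and F3 windows at -333, -283, -233 and -83 bp. Every pair of generations shared at least 1 of these windows, and none was in all 3 lists.

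On scaffold 60, between 10426951 and 10427550, both F1 windows and both F2 windows stood at -772 and -722 bp. F3 listed the window at -772 bp again and 4 others at -922, -522, -472 and -422 bp. F1 and F2 therefore matched window for window and F3 in part.

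On scaffold 38, between 35801 and 36600, F1 windows stood at -631 and -231 bp, F2 windows at -931, -731 and -231 bp, and F3 windows at -881, -831, -781 and -731 bp. F1 and F2 shared the window at -231 bp and F2 and F3 that at -731 bp, while no F1 window overlapped an F3 window. On scaffold 0, between 56746301 and 56747050, 5 F1 windows stood at -771, -721, -271, -221 and -171 bp, beside 1 F2 window at -221 bp and 3 F3 windows at -321, -171 and -121 bp.

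Of the other 6, each with 7 windows, the scaffold 8 promoter between 19054001 and 19054700 had the fewest pairs of generations sharing a window. Its F1 windows stood at -524, -424 and -374 bp, upstream of the F2 window at -24 bp and the F3 windows at -24, 26 and 76 bp. The promoter on scaffold 25 between 12291101 and 12291900 had F3 apart, with its only window at -806 bp beside F1 windows at -456, -156 and -106 bp, although F2 listed windows at -806, -456 and -156 bp. The remaining 4 promoters, on scaffolds 31, 25, 15 and 13, each had a window common to all 3 generations, at -410, -666, -130 and 47 bp.

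**Figure D4:**
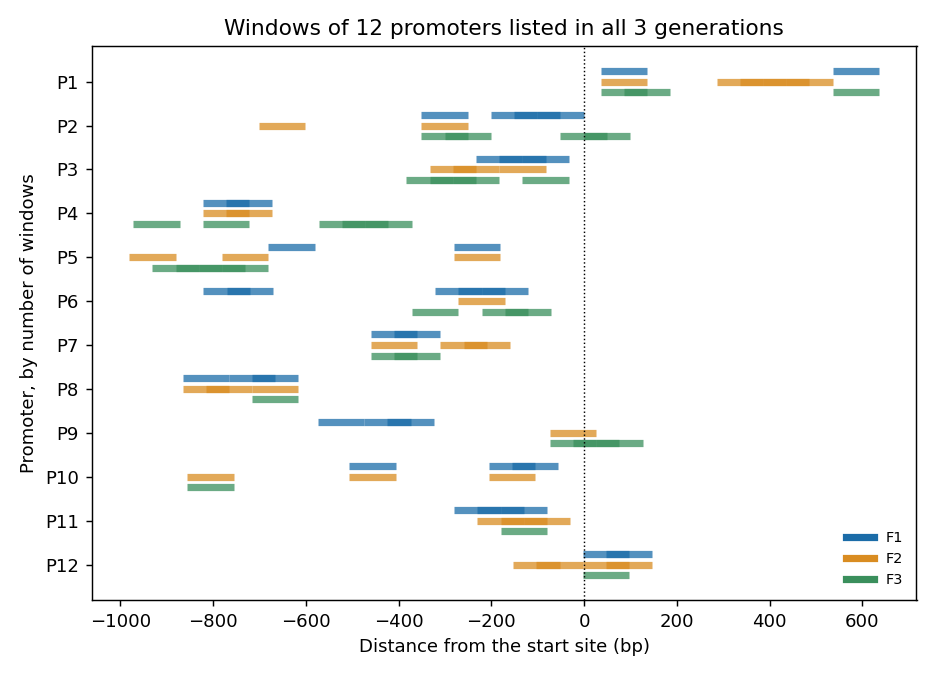
Listed windows of the 12 promoters with the most windows among those listed in all 3 generations. The x axis is the distance from the start site in bp (negative upstream, dotted line at the start site), each bar is a window of 100 bp, darker where windows overlap, and rows P1 to P12 run from 10 windows in all to 7. P1, P2 and P4 have a window common to F1, F2 and F3, whereas in P9 the F1 windows lie apart from those of F2 and F3.

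Most listed promoters had no other listed window in the gene. In F1, 507 of 1865 promoters (27.2%) also had a window in an exon, an intron or at the transcription end of the same gene, compared with 382 of 1472 (25.95%) in F2 and 394 of 1520 (25.92%) in F3. Introns contributed most, with 17.5%, 17.4% and 16.4% of promoters, and exons between 5.66% and 6.17%. The same shares over all genes were not counted, so these values do not set promoters with a listed window apart from other genes.

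Single CpGs were listed by the authors under the same minimum difference in tables of their own, of 90611, 46492 and 70002 distinct CpGs. On the shared scaffolds, 210 of 1870 F1 promoter windows (11.2%) held a listed F1 CpG, 201 of 1941 F2 windows (10.4%) a listed F2 CpG, and 189 of 1499 F3 windows (12.6%) a listed F3 CpG. Where any was present the median was 1 CpG. Among the windows of other classes, these shares were 5.43% to 6.96% in exons, 4.97% to 6.17% in introns, 6.34% to 7.72% between genes and 15.4% to 15.9% at transcription ends. Promoter windows thus stood second of the 5 classes in each generation, without a test. Most listed windows held no listed CpG. Which CpGs were covered enough to be compared is not known, so these shares do not measure agreement between windows and CpGs.

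CpGs listed in another generation were also found in the promoter windows. F1 windows held an F2 CpG in 10.9% of cases and an F3 CpG in 7.65%, beside 11.2% for F1 CpGs. F2 windows held an F1 CpG in 8.86% and an F3 CpG in 7.83%, beside 10.4% for F2 CpGs. F3 windows held an F1 CpG in 12.1% and an F2 CpG in 12.9%, beside 12.6% for F3 CpGs, so that in F3 the CpGs of the same generation did not rank first. The CpG tables differ in length, and no test of these differences was made.

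**Figure D5:**
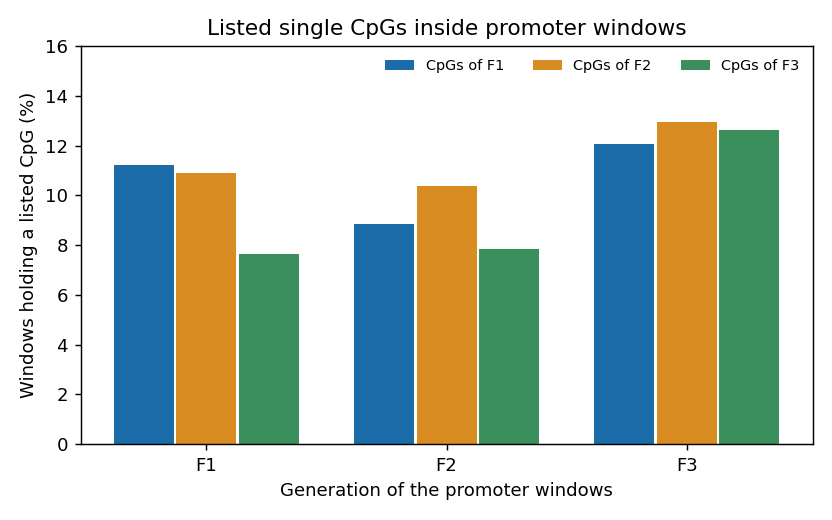
Share of promoter windows that held at least 1 listed single CpG (y axis, %), by generation of the windows (x axis) and generation of the CpG table (bars), on the scaffolds present in all 3 window tables. In F1 and F2 the CpGs of the same generation gave the highest share (11.2% and 10.4%), and in F3 the CpGs of F2 did (12.9%).

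The share of windows with a listed CpG was higher among those that recurred, without a test. Each distinct window was checked once against the CpGs of all generations, however many generations listed it. Windows and CpGs came from the same libraries, however, so holding a listed CpG is not independent of being listed as a window. With the CpGs of all generations pooled, 17.0% of windows listed in 1 generation, 25.3% of those in 2 and 9 of the 43 windows in 3 (20.9%) held at least 1. The window with the most CpGs of its own generation was on scaffold 537, between 4051 and 4150, with 20 listed F3 CpGs at -842 bp. A window of the same promoter, between 4151 and 4250 at -942 bp, led in F1 with 15 CpGs. In F2 the highest number was 9, on scaffold 30 between 8446551 and 8446650, at 67 bp.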

How the data were processed

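Bisulfite capture and RNA libraries of female hippocampus were grouped by their labels. Per the labels and the study's methods, the authors trimmed reads with Trimmomatic 0.32, aligned them to cavPor3 with BSMAP 2.74, removed duplicates with Picard 1.93, applied a minimum coverage per CpG, compared sGC with control in methylKit 1.4.0 (R 3.2.3) in windows of 100 bp every 50 bp and at single CpGs, and annotated them with HOMER 4.6. The deposited methylation tables hold each window's position, gene, distance and annotation, beside the authors' own comparison (a methylation difference, a p-value and a q-value per row). The comparison columns were read only to learn that no listed difference was below 2 percentage points and that p did not limit the listing. Their values are not reported here. Depth and values per animal were not used here, so the depth behind each window is unknown.

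The same windows carried starts that differ by 1 between tables, so windows were matched by scaffold and end. A total of 4062 repeated rows were dropped from the CpGs of F3. Matching and merging were tested on simulated windows. RNA values were deposited by the authors as raw counts per gene (TopHat2) and were divided by library totals to give CPM for marker lists. The tables name genes by Ensembl identifier and the counts by symbol, and no file used here pairs them, so the planned comparison of RNA at these promoters and their gene names are not reported here. No genome was used, so no sequences are shown.

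Named promoters were those listed in all 3 generations with the most windows (12, ties by identifier) and those with the most windows in a generation. Single windows and neighbourhoods were named after their values were seen, and the grouping of promoters within 20 kb was likewise added later. The windows and lists were chosen with earlier results of these data known. Python 3.11.15, pandas 2.3.3, numpy 2.4.6 and matplotlib 3.10.9 were used.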

Additional observations from a re-analysis of the deposited data

Results flagged for a closer look

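Marker lists were summed in each RNA library for the tissue check, and in 3 of 60 groups of libraries (10 lists in each of 6 groups) 1 library stood far from the others of its group relative to the group's range. Chance gives about 1 such group in 20. The oligodendrocyte markers of F1 sGC replicate 1 summed to 1279 CPM, where the next highest library of its group had 947.2 CPM. Over both F1 groups the highest sum was 1406.7 CPM. The inhibitory neuron markers of F3 control replicate 2 summed to 631.6 CPM, where the next lowest of its group had 682.2 CPM. That value was the median of all F3 libraries, which ran from 547.1 to 705.1 CPM. The microglia markers of F3 sGC replicate 4 summed to 265.4 CPM, the highest of all F3 libraries, where the next highest of its group had 240.8 CPM. Whether these animals also gave bisulfite libraries that stand apart was not tested.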

How the results depend on the processing

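The numbers of promoter windows in F1, F2 and F3 stayed within 1.5 times of those reported when windows were merged, limited to 300 bp around the start site or limited to the scaffolds of all 3 tables, a setting added after seeing the data. F2 came above F3 within 300 bp, and on the scaffolds of all 3 tables F2 came first and F3 last. Shared windows depended on what counts as shared. With an overlap of at least 1 base, 424 F1 windows matched F2, 502 F1 windows matched F3, 332 F2 windows matched F3 and 103 F1 windows matched both other generations. With the same promoter, the numbers were 455, 504, 359 and 153. Within 300 bp of the start site, the windows in all 3 generations fell to 27. Fewer windows enter the last setting by construction, and the match by promoter counts promoters instead of windows. Differences below the listing minimum, and windows covered too little, cannot be seen. No paired analysis was possible because the results come from lists and from no test. Other settings for the RNA of the genes (another test, normalization or filter, all 36 libraries together, libraries left out, the replicate block, and genes chosen by their windows) were not run, since the genes could not be matched.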

Other observations

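The single-CpG tables showed the scaffold pattern of the windows in F2, where all 46492 CpGs lay on 87 scaffolds, compared with 1201 scaffolds in F1 and 403 in F3. On the shared scaffolds, promoter windows were most numerous on scaffold 8 in F1 (69) and F2 (75) and on scaffold 4 in F3 (66).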
